A study of Mus musculus with 6 samples.

Results

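*Clic6*, *Foxj1*, *Ttr*, *Enpp2* and *Rsph1* are genes of the epithelia that line the brain ventricles, and they were followed in Nestin-expressing cells of the neonatal mouse cerebellum after irradiation. They were taken by gene symbol as known choroid plexus or ependymal genes, and all 5 were found among the 19630 genes of the deposited table. The choice was made with earlier results of the same comparison in view, so the differences of these 5 genes between the groups are given as descriptions without a test. The irradiated group held 3 libraries from Nes-CFP/+ mice of the Swiss webster strain that were irradiated at postnatal day 1 and taken at postnatal day 5. The control group held 3 libraries from non-irradiated mice of the same genotype, strain and age. Both groups carry the reporter, in which a cyan fluorescent protein marks cells that express *Nes*, the gene of the intermediate filament protein Nestin, and only CFP-positive cells sorted from papain-dissociated cerebella were sequenced. The sort is defined by that one reporter, and the labels give neither the radiation dose nor whether a library came from 1 animal or several.

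The choroid plexus is a sheet of epithelium in each ventricle that secretes cerebrospinal fluid and releases carrier proteins and enzymes into it. The ventricle walls are lined by ependymal cells, whose many motile cilia move that fluid. Multiciliated cells are set up by a regulatory cascade that leads to the forkhead factor FOXJ1 and, with RFX factors, to the genes of the axoneme, the microtubule core of the cilium. Radial spokes are parts of the axoneme that link its outer doublets to its central pair.

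Values are read counts scaled by the authors' size factors, and gene-assigned reads numbered 30986269 to 31070520 in the irradiated libraries and 31130326 to 37067530 in the control libraries. Genes of neural stem cells and glia, which the reporter marks, were present in each library, and the summed scaled counts of *Nes*, *Sox2*, *Fabp7* and *Slc1a3* were 231809 to 392145 in irradiated libraries and 330969 to 414940 in control libraries. Irradiated replicate 3 was the lowest of the 6 for each of these 4 genes. It was also the lowest for 23.9% of all genes averaging 10 or more scaled counts, the largest share of any library. Of 13 genes in the full list of such cells 10 were lower in the fit, and none was called by limma, with 1 at an unadjusted p below 0.05. A list of 14 stromal, meningeal and vessel genes, of which 12 were lower in the fit and none was called, summed to 7132 to 9114 in irradiated libraries and 9036 to 9644 in control libraries. Whether the libraries of a group come from separate animals is not given in the labels, and the p-values therefore cover the spread among these 6 libraries alone, part of which may be technical. In bulk RNA, a change in the number of cells of a type cannot be told apart from a change in RNA per cell.

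The level of each gene per kilobase of exon was compared first, since longer transcripts collect more reads. In irradiated libraries *Enpp2* averaged 682 ± 37.9 scaled counts per kilobase, *Foxj1* 474 ± 70.6, *Rsph1* 165 ± 11.9 and *Clic6* 58.1 ± 13.2 (SD, n = 3). In control libraries the same order was found, with *Enpp2* at 756 ± 130.1 per kilobase, *Foxj1* at 339 ± 85.2, *Rsph1* at 155 ± 54.8 and *Clic6* at 22.8 ± 3.99 (SD, n = 3). Within either group *Enpp2* did not overlap *Foxj1*, nor *Foxj1* *Rsph1*. *Ttr* had no fixed place in this order, with 66.8, 33.2 and 2241 per kilobase in irradiated libraries and 42.5, 160.2 and 11.6 in control libraries. The control range of *Ttr* overlapped that of *Rsph1* above it and that of *Clic6* below it. *Enpp2* was higher per kilobase than 84.1% of the 16674 genes tested, those whose scaled counts average 10 or more, and *Clic6* was higher than 25.1% of them.

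*Clic6* encodes a member of the chloride intracellular channel family and is a marker of choroid plexus epithelium. It had 169.9, 243.4 and 269.1 scaled counts in irradiated replicates 1, 2 and 3, against 91.3, 72.8 and 103.9 in control replicates 1, 2 and 3. Every irradiated library lay above every control library, and the lowest irradiated one was irradiated replicate 1. The group means were 227 ± 51.5 and 89.3 ± 15.6 (irradiated and control, SD, n = 3), a ratio of 2.55, and the log2 fold change on log2(scaled count + 1) was 1.33 (SE 0.24). These values rest on 163, 235 and 267 reads in the irradiated libraries and 87, 74 and 121 in the control libraries. Over 13 alternative settings the log2 fold change ran between 1.19 and 1.52.

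*Foxj1* encodes the forkhead factor that directs the motile cilium programme. It had 1290.6, 1399 and 1038 scaled counts in irradiated replicates 1, 2 and 3, against 1030.3, 1004 and 631 in control replicates 1, 2 and 3. The irradiated libraries again lay above the controls, but irradiated replicate 3 and control replicate 1 stood nearly level and the low control mean came from control replicate 3. The means were 1243 ± 185 in irradiated and 888 ± 223 in control libraries (SD, n = 3), with a log2 fold change of 0.51 (SE 0.20), which was 0.28 without control replicate 3.

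*Ttr* encodes transthyretin, the carrier of thyroxine and of retinol-binding protein that choroid plexus epithelium secretes in large amounts. It had 79.2, 39.4 and 2658 scaled counts in irradiated replicates 1, 2 and 3, against 50.4, 189.95 and 13.7 in control replicates 1, 2 and 3. Irradiated replicate 3 held 95.7% of the scaled *Ttr* counts of its group and 14.0 times those of the next highest library, which was a control, while the other irradiated libraries lay inside the control range. The log2 fold change was 1.97 (SE 1.42), where the SD between replicates on the log2 scale was 3.24 in irradiated and 1.85 in control libraries. It was 0.12 without irradiated replicate 3 and 3.14 without irradiated replicate 2.

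*Enpp2* encodes autotaxin, a secreted enzyme that makes the signalling lipid lysophosphatidic acid. It is abundant in choroid plexus epithelium and is also made by other cells, among them those of the oligodendrocyte lineage. It had 3819.6, 3808 and 4193 scaled counts in irradiated replicates 1, 2 and 3, against 5145, 3645 and 4321 in control replicates 1, 2 and 3. The groups overlapped, with the highest and the lowest library both among the controls. *Enpp2* was the steadiest of the 5 genes, with a highest to lowest ratio over the 6 libraries of 1.41 and a log2 fold change of -0.14 (SE 0.13), which was -0.01 without control replicate 1 and -0.26 without control replicate 2.

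*Rsph1* encodes a protein of the radial spoke head. It had 242.9, 210.3 and 226.8 scaled counts in irradiated replicates 1, 2 and 3, against 222.4, 282.5 and 133 in control replicates 1, 2 and 3. The irradiated libraries fell between the controls, and both extremes were control libraries. The log2 fold change was 0.16 (SE 0.26), and it turned to -0.15 without control replicate 3 and was 0.39 without control replicate 2.

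**Figure D1:**
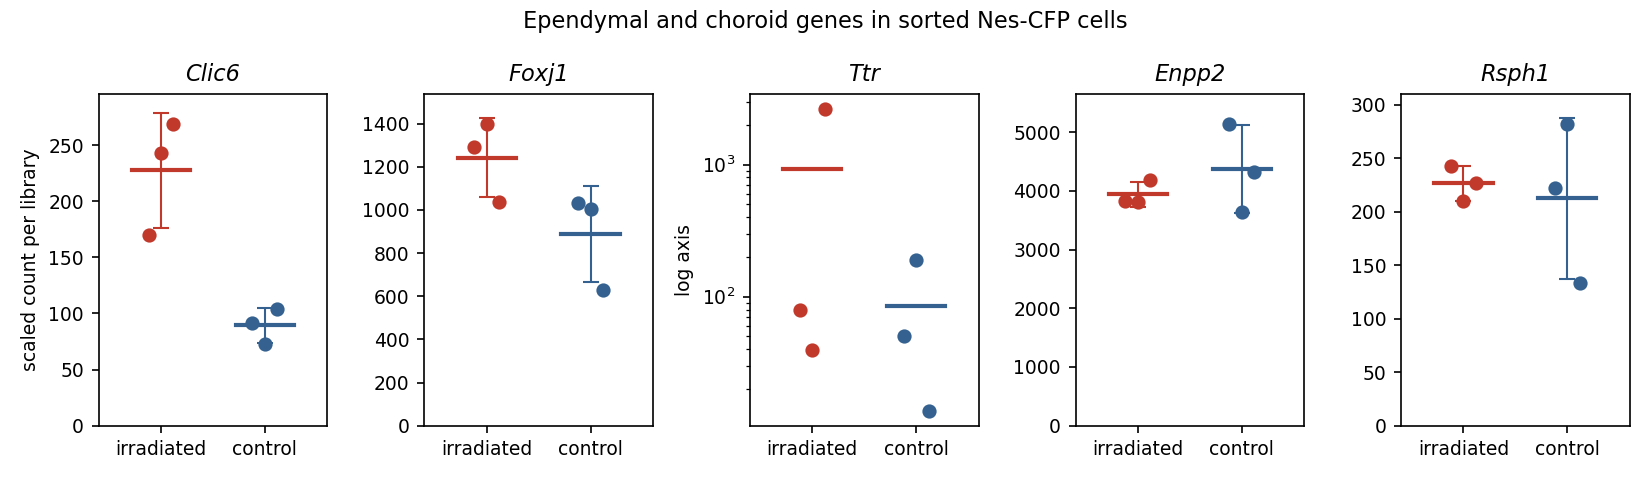
Scaled counts of the 5 genes in each library, irradiated (red) left of control (blue); points are libraries 1, 2 and 3 from left to right, horizontal lines are arithmetic means and whiskers are SD (none for *Ttr*, which has a log axis). *Clic6* lies at 169.9 to 269.1 in irradiated and 72.8 to 103.9 in control libraries, *Foxj1* in irradiated replicate 3 is near control replicate 1, and *Ttr* reaches 2658 in 1 library.

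Over all genes, 9 of the 16674 tested were called (0.054%), at a threshold of 0.05 on the p from limma-trend after Benjamini-Hochberg adjustment. Of these, 7 were higher (0.042%) and 2 lower (0.012%), and with 1 library left out the number called was between 1 and 29, with the lowest number without control replicate 2 and the highest without irradiated replicate 1. None of the 5 genes was among the 9, nor among the 25 called with the replicate number as a block (0.15%). By the unadjusted p of limma, 2 of the 5 were under 0.05, beside 4.5% of all genes. A log2 fold change of at least 1 was found for *Clic6* and *Ttr*, beside 0.756% of all genes, and one of at least 0.5 also for *Foxj1*, beside 3.42%. The groups did not overlap for 2 of the 5, *Clic6* and *Foxj1*, beside 8.83% of all genes in either direction and 4.83% with the irradiated libraries higher. Since the 5 genes were proposed with this contrast known, nothing is read from these counts.

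In coordinates of GENCODE release M21 on GRCm38, the plus-strand genes are *Clic6* (ENSMUSG00000022949.9), at positions 92485736 to 92541243 of chromosome 16, and *Ttr* (ENSMUSG00000061808.3), at 20665280 to 20674321 of chromosome 18. The minus-strand genes are *Foxj1* (ENSMUSG00000034227.7), at 116330704 to 116335399 of chromosome 11, *Enpp2* (ENSMUSG00000022425.15), at 54838901 to 54952892 of chromosome 15, and *Rsph1* (ENSMUSG00000024033.9), at 31255019 to 31277383 of chromosome 17. All 5 are protein-coding. *Clic6* overlaps the noncoding gene *2410124H12Rik* on its own strand, *Enpp2* the noncoding gene *Gm26684* on the other strand and *Rsph1* the antisense gene *AC154652.1*. Strand-specific counting is stated nowhere in these sources, and reads of such partners may therefore be mixed. *Gm26684* itself had 4.14 to 13.1 scaled counts in irradiated and 4.92 to 7.73 in control libraries.

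The genes around *Clic6* were examined next. Within 200 kb of it the table lists 5 genes, of which 4 were tested. None was called by limma, beside 0.054% of all genes. *Kcne1* had an unadjusted p below 0.05, beside 4.5% of all genes. *Kcne1*, an accessory subunit gene of voltage-gated potassium channels, had 35.4, 48.7 and 77.6 scaled counts in irradiated replicates 1, 2 and 3, against 28.3, 13.8 and 29.2 in control replicates 1, 2 and 3. Its libraries did not overlap between the groups, with a log2 fold change of 1.15 (SE 0.39, limma adjusted p = 0.893). Over all genes, 4.83% were higher without overlap. *Rcan1*, which encodes a calcineurin regulator and lies between *Kcne1* and *Clic6*, had 1766, 1754 and 1889.8 in irradiated and 1888.6, 1550.1 and 1666 in control libraries, which overlap. *Runx1*, a transcription factor gene, and *Smim11* overlapped between groups too, with log2 fold changes of 0.58 and -0.11. *Kcne2*, a potassium channel subunit gene of the choroid plexus in the same interval, had 2.08, 2.07 and 6.05 in irradiated and 2.10, 0.984 and 6.01 in control libraries. Of the other CLIC genes 3 were tested, and none was called by limma or had an unadjusted p below 0.05. Their log2 fold changes were 0.03 for *Clic4*, 0.16 for *Clic1* and -0.07 for *Clic5*, and their groups overlapped.

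Around the other members no gene within 200 kb was called either, among 15 tested near *Foxj1* and 4 each near *Ttr*, *Enpp2* and *Rsph1*. Near *Enpp2*, *Nov*, which encodes a secreted matricellular protein of the CCN family, had 1.04, 19.7 and 2.02 scaled counts in irradiated replicates 1, 2 and 3, against 101.8, 79.7 and 30.0 in control replicates 1, 2 and 3. Each irradiated library lay below each control library, and the spread within groups was wide (log2 fold change -3.66, SE 0.81, limma adjusted p = 0.315). Near *Rsph1*, both *Pde9a*, a cyclic GMP phosphodiesterase gene, and *Tmprss3*, a serine protease gene, were lower without overlap. Their log2 fold changes were -0.55 (SE 0.14, limma adjusted p = 0.496) and -0.44 (SE 0.17, limma adjusted p = 0.987). Near *Foxj1*, the pseudogene *Cdk3-ps* was also lower without overlap (log2 fold change -0.49, SE 0.27). Over all genes, 4.01% were lower without overlap and 0.054% were called.

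The label of choroid plexus was checked against 6 further markers of that epithelium. *Folr1*, the folate receptor alpha gene, had 9.38, 10.4 and 31.2 scaled counts in irradiated replicates 1, 2 and 3, against 12.6, 18.7 and 13.7 in control replicates 1, 2 and 3. The ion channel gene *Kcnj13* had 3.13, 0 and 10.1 in irradiated and 2.10, 1.97 and 1.72 in control libraries, and *Kl*, the gene of the ageing suppressor Klotho, had 9.38, 3.11 and 22.2 in irradiated and 2.10, 10.8 and 20.6 in control libraries. These defining markers and *Kcne2* thus rested on few reads in both groups. *Aqp1*, a water channel gene, was steady at 52.1 to 64.5 in irradiated and 57.1 to 63.0 in control libraries. *Otx2*, a homeobox gene that granule cell precursors of the cerebellum also express, had 599, 841 and 1088 in irradiated and 768, 639 and 728 in control libraries. Each of the 6 markers had its highest value in irradiated replicate 3, the library with the high *Ttr*, in some cases by little. *Aqp1* had 64.5 there against 64.2 in irradiated replicate 2. *Kcne2* had 6.05 and *Kl* 22.2 there, against 6.01 and 20.6 in control replicate 3, where *Ttr* was lowest. Without *Otx2* the markers summed to 76.1, 79.8 and 134.1 in irradiated replicates 1, 2 and 3. In control replicates 1, 2 and 3 the sums were 81.8, 89.6 and 103.0. *Aqp1* was the largest part of each sum, and the remaining markers rested on few reads. *Clic6* was also highest in irradiated replicate 3. It was above the controls in the other irradiated libraries as well, and its log2 fold change was 1.19 without irradiated replicate 3. *Enpp2* in irradiated replicate 3 lay within the control range. The part of choroid plexus cells in any of these values was not tested. The ependymal label was checked with 8 markers of multiciliated ependymal cells, none of which was at 0 in any library. They summed to 1110.2, 1343.4 and 1027.1 scaled counts in irradiated replicates 1, 2 and 3, against 1291.6, 1408.4 and 824.9 in control replicates 1, 2 and 3, and 6 of the 8 were lowest in control replicate 3.

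**Figure D2:**
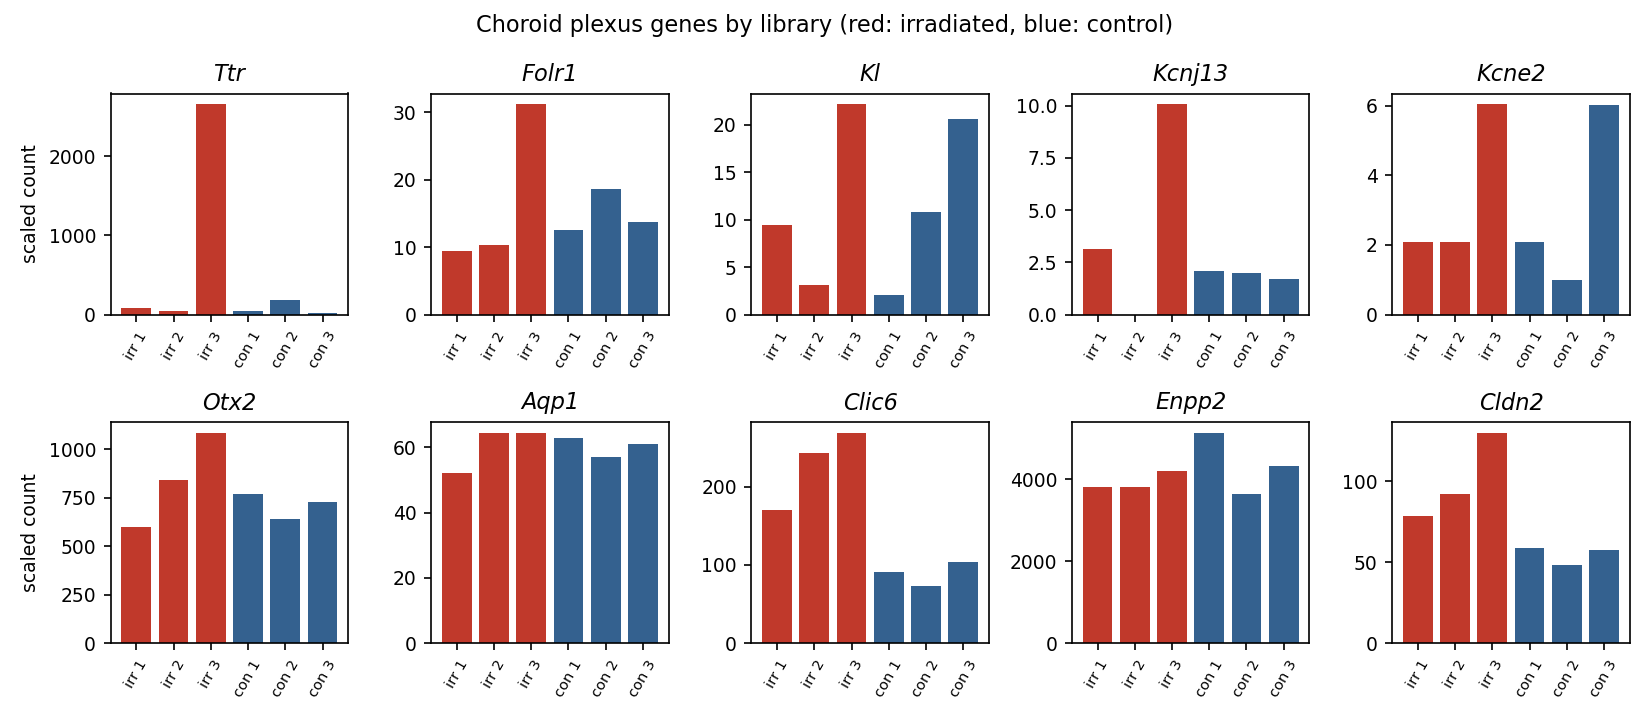
Scaled counts of choroid plexus genes by library, irradiated replicates 1 to 3 (red, irr) left of control replicates 1 to 3 (blue, con), each gene on its own linear axis from 0. *Ttr* reaches 2658 and *Folr1* 31.2 in irradiated replicate 3. *Clic6* and *Cldn2* are above the controls in each irradiated library and *Enpp2* is level. *Cldn2* was picked from the broader choroid plexus list, where 3 of 40 tested genes lay above the controls without overlap and 4 lay below.

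A broader list of choroid plexus epithelium genes held 50 genes besides *Clic6*, *Ttr* and *Enpp2*, of which 49 were in the table and 40 were tested. None was called by limma, with or without the replicate block, while 7 of the 40 had an unadjusted p below 0.05, beside 4.5% of all genes. In the fit 19 were higher and 21 lower after irradiation, with a median log2 fold change of -0.01 beside -0.0028 over all genes tested. The 3 with the highest counts, *Cd9*, *Atp1b1* and *Ezr*, are expressed by many cell types. *Cldn2*, the claudin of leaky epithelial tight junctions, had 78.2, 92.2 and 130.02 scaled counts in irradiated and 58.8, 48.2 and 57.5 in control libraries, with no overlap (log2 fold change 0.83, SE 0.26, limma adjusted p = 0.779). *Car12* and *Car14*, genes of membrane-bound carbonic anhydrases, had opposite signs. *Car12* had 16.7, 22.8 and 39.3 in irradiated and 12.6, 11.8 and 12.9 in control libraries, whereas *Car14* had 71.9, 69.4 and 98.8 in irradiated and 137, 181 and 134 in control libraries. Their log2 fold changes were 0.94 (SE 0.37, limma adjusted p = 1) and -0.91 (SE 0.23, limma adjusted p = 0.497). *Lmx1a*, a homeobox gene of the roof plate from which choroid plexus arises, had 36.5, 67.3 and 65.5 in irradiated and 83.9, 129 and 98.7 in control libraries (log2 fold change -0.90, SE 0.30, limma adjusted p = 0.858). The groups did not overlap for 3 of the 40 genes with the irradiated libraries higher (7.5%) and for 4 with them lower (10%), beside 4.83% and 4.01% of all genes.

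By library, 19 of the 40 choroid plexus genes (47.5%) had their highest value in irradiated replicate 3, beside 22.6% of all genes tested. The list includes the choroid plexus markers already described as highest there, so this count is not a separate check. The 9 list genes below the limit on low counts were not tested, and 8 of them, *Kcnj13* and *Kcne2* included, were also highest in irradiated replicate 3. No share over all genes below the limit was taken to set beside this. Among the 9 was *Tmem72*, a membrane protein gene of choroid plexus that was picked out after its values were seen, with 1.04, 0 and 18.1 scaled counts in irradiated replicates 1, 2 and 3 and 1.05, 0 and 0 in control replicates 1, 2 and 3. *Htr2c*, the serotonin receptor gene abundant in that epithelium and picked in the same way, had 1.04, 1.04 and 21.2 in irradiated and 3.15, 4.92 and 0.858 in control libraries. Outside irradiated replicate 3 both rested on a few reads a library.

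The products that *Ttr* and *Enpp2* work with were described from further lists. Of 17 genes of thyroid hormone and retinol carriage 14 were tested and none was called by limma, with 1 at an unadjusted p below 0.05. That gene, *Stra6*, encodes the cell surface receptor for retinol-binding protein and had 87.6, 165.7 and 236.9 scaled counts in irradiated replicates 1, 2 and 3, against 58.8, 45.3 and 103.9 in control replicates 1, 2 and 3. Its lowest irradiated library lay below the highest control, although the irradiated library was the higher one at each replicate number, and the log2 fold change was 1.20 (SE 0.40, limma adjusted p = 0.862). *Dio2*, the deiodinase gene that activates thyroxine, had 520.2, 225 and 125 in irradiated and 401, 655 and 394 in control libraries, which overlap (log2 fold change -0.94, SE 0.44, limma adjusted p = 1). The thyroid hormone receptor gene *Thra* stood at 8899 to 11597 in irradiated and 10153 to 12771 in control libraries. Among 14 genes of the autotaxin family, lysophosphatidic acid receptors and lipid phosphatases, all of them tested, none was called by limma and none had an unadjusted p below 0.05, with 4 higher and 10 lower in the fit and a median of -0.09. Receptor gene *Lpar1* had 2846, 2197 and 1365 in irradiated and 2159, 1804 and 1909.9 in control libraries, whereas *Lpar3* was lower, without overlap, at 43.5 to 54.2 in irradiated and 63.0 to 85.0 in control libraries (log2 fold change -0.52, SE 0.24, limma adjusted p = 1).

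The motile cilium genes with which *Foxj1* and *Rsph1* belong were present throughout the sort. Over 5 lists with 141 genes, 137 were in the table and 136 were tested. None was called by limma, with or without the replicate block, and 3 had an unadjusted p below 0.05, beside 4.5% of all genes. In the fit 83 were higher and 53 lower, where 49.4% of all genes tested were higher. The median log2 fold change was 0.06, beside -0.0028 over all genes tested. The median of the cilium genes was -0.10 without control replicate 3 and 0.20 without control replicate 2. The groups did not overlap for 5 of the 136 with the irradiated libraries higher (3.68%) and for 1 with them lower (0.735%), beside 4.83% and 4.01% of all genes.

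Of 18 tested regulators of multiciliation 9 were higher and 9 lower in the fit. *E2f4*, *E2f5* and *Tfdp1*, whose products form complexes with those of *Gmnc* and *Mcidas*, had log2 fold changes of 0.01, -0.05 and 0.04. *Mcidas*, a regulator gene of the multiciliated programme, had 28.1, 13.5 and 17.1 scaled counts in irradiated and 24.1, 18.7 and 17.2 in control libraries. *Gmnc*, the gene of its relative geminin coiled-coil protein, stood at 21.2 to 26.1 in irradiated and 15.7 to 24.0 in control libraries. *Ccno*, a cyclin-family gene needed for centriole amplification, had 51.1, 59.0 and 59.5 in irradiated and 68.2, 65.9 and 62.7 in control libraries, so it lay below the controls while *Foxj1* lay above them (log2 fold change -0.21, SE 0.22, limma adjusted p = 1). The X-box factor genes *Rfx3* and *Rfx2* overlapped between groups, at 2435 to 3491 and 657 to 808 in irradiated and 2253 to 4172 and 556 to 719 in control libraries. *Foxn4*, a forkhead gene with a part in multiciliation known from frog, had 26.1, 13.5 and 21.2 in irradiated and 8.39, 8.86 and 13.7 in control libraries, overlapping by a fraction of a read, though higher in the irradiated library of each replicate number (log2 fold change 0.89, SE 0.38, limma adjusted p = 1).

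Among 20 tested genes of the radial spokes and the central pair, none was called by limma and none had an unadjusted p below 0.05. *Rsph4a*, a partner of *Rsph1* in the spoke head, had 212, 219.6 and 209.6 scaled counts in irradiated replicates 1, 2 and 3, against 205, 299 and 124 in control replicates 1, 2 and 3, the same order among the controls as for *Rsph1*. *Rsph9*, also of the spoke head, had 636, 528 and 544 in irradiated and 815, 596 and 619 in control libraries (log2 fold change -0.24, SE 0.16, limma adjusted p = 1). *Rsph3a* and *Rsph3b* are similar genes whose reads may be split between them, with log2 fold changes of 0.29 and -0.07. *Hydin*, of the central pair, and *Dnah9*, a heavy chain of the outer dynein arm, had log2 fold changes of 0.14 and 0.05. In the 33 tested genes of dynein arms and their assembly 18 were higher and 15 lower in the fit, with *Zmynd12* at 0.52 (SE 0.34). In the 11 of the nexin-dynein regulatory complex and its rulers 9 were higher and 2 lower, with *Drc1*, a core subunit gene, at 0.28. The largest positive log2 fold change among the tested cilium structure genes was that of *Mns1*, of the doublet microtubules, with 911, 968 and 1031 in irradiated and 606, 758 and 552 in control libraries. Its groups did not overlap (log2 fold change 0.61, SE 0.15, limma adjusted p = 0.422), and it was not called under any of 13 alternative settings.

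The cilium genes also differed between libraries of 1 group. Of the 118 tested genes of cilium structure, in 4 of the lists, 82 (69.5%) had their lowest value in control replicate 3 and 55 (46.6%) their highest in control replicate 2. Over all genes these shares were 13.9% and 18.7%. The median gene stood 0.42 below its own 6-library mean, on the log2 scale, in control replicate 3 (-0.42) and above it in control replicate 2 (0.31). It stood at 0.09, 0.12 and -0.09 in irradiated replicates 1, 2 and 3, against 0.04, 0.31 and -0.42 in control replicates 1, 2 and 3, so that replicate 2 was highest and replicate 3 lowest in both groups, over a wider range among the controls. Among the controls *Rsph1* followed this, with deviations of -0.68 in control replicate 3 and 0.40 in control replicate 2. In irradiated replicates 1, 2 and 3 it did not, with 0.18, -0.03 and 0.08. *Foxj1* was also low in control replicate 3 (-0.71) but not high in control replicate 2 (-0.04). The deviation of *Foxj1* less that of the median cilium gene in the same library was 0.23, 0.32 and 0.09 in irradiated replicates 1, 2 and 3, against -0.04, -0.36 and -0.29 in control replicates 1, 2 and 3. These are differences of deviations from each gene's own mean, not of levels, and their means differed between the groups by 0.44 for *Foxj1* and 0.09 for *Rsph1*. *Clic6* stood at -0.94 in control replicate 2, where the cilium genes were highest, and at -0.43 in control replicate 3, level with their median there.

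**Figure D3:**
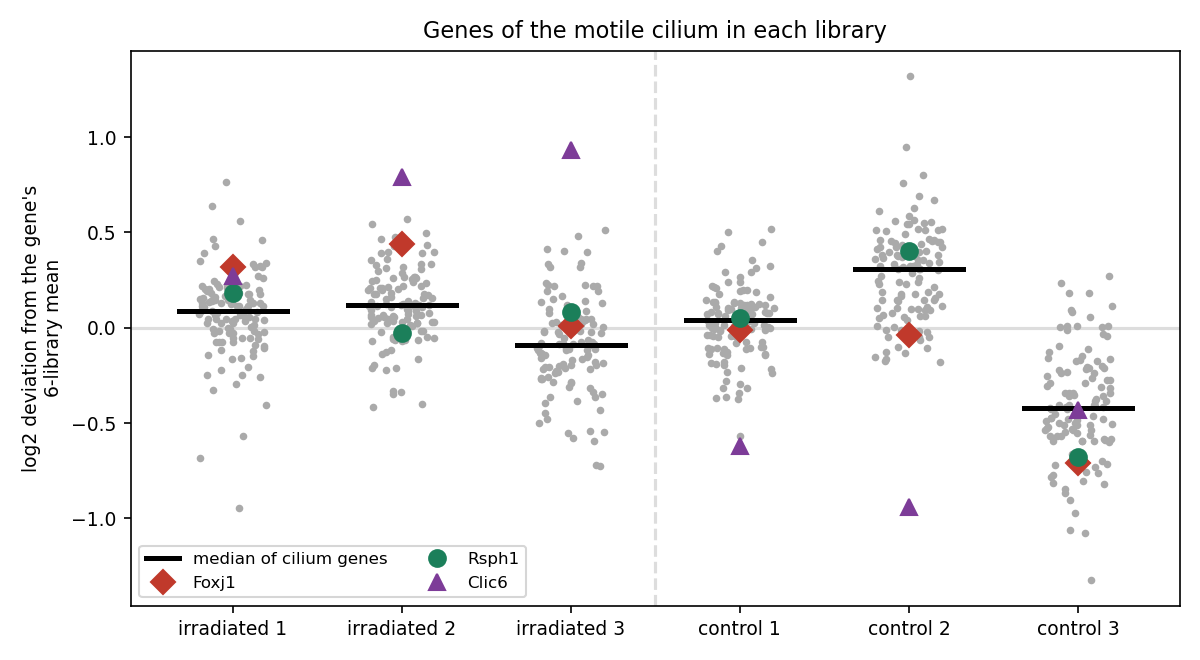
Log2 deviation of each of 118 cilium structure genes (grey) from its own 6-library mean, with the median gene (black bar), *Foxj1* (red diamond), *Rsph1* (green circle) and *Clic6* (purple triangle), irradiated libraries left of controls. The cilium genes are highest in control replicate 2 (median 0.31) and lowest in control replicate 3 (median -0.42), with the irradiated libraries between them.

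The genes whose profile over the 6 libraries was closest to each of the 5 were found by the root mean square distance between log2 values after each gene's mean was taken off, among 13899 other genes averaging 50 or more scaled counts. For *Rsph1* the closest were *Meig1*, *Enkur* and *Morn5*, at distances of 0.0614, 0.0788 and 0.0823, against a median of 0.377 over all genes. *Enkur* encodes a protein of the sperm and cilium axoneme, and *Meig1* a protein of spermatid development, and both were in the cilium lists. For *Foxj1* they were *1700003E16Rik*, *Dcdc2a*, which encodes a doublecortin-domain protein of cilia, and *Rhbdl3*, at 0.0815, 0.0856 and 0.0995, against a median of 0.4. For *Clic6* the closest was *RP24-402O2.2*, a long intergenic noncoding RNA gene on chromosome 11, at 0.0955, against a median of 0.729, with 199.1, 288 and 294 scaled counts in irradiated and 104, 88.6 and 141 in control libraries. *Tll1*, of the tolloid metalloproteases, and *Pqlc3* followed at 0.182 and 0.184, and none of these is in the choroid plexus list. *Enpp2* was closest to *Repin1*, *Spin2c* and *Crtap* at 0.0375 to 0.0493, against a median of 0.233. No gene of this pool was close to *Ttr*, whose nearest, *Gm6356*, lay at 1.5 where the median gene lay at 2.38. Choroid plexus genes averaging below 50, among them *Tmem72* and *Htr2c*, were not in the pool.

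Lists of nearby tissues were compared last. In the floor plate list, the ventral midline of the neural tube, *Foxa2* was the 1 gene called among 4 tested, beside 0.054% of all genes. The list was chosen with earlier results of these data known. *Foxa2*, a forkhead gene, had 29.2, 31.1 and 41.3 scaled counts in irradiated and 2.10, 1.97 and 0.858 in control libraries (log2 fold change 3.74, SE 0.40, limma adjusted p = 0.0205). Its control values are at 1 or 2 reads a library, so this fold change depends on the pseudocount of 1, and its adjusted p was up to 0.149 over 12 alternatives, of which 7 called it. Among the remaining floor plate genes, *Spon1*, *Slit2* and *Ntn1* were not called. *Corin* was at 2.07 to 8.34 in irradiated and 4.92 to 5.25 in control libraries. *Shh* was at 3.02 to 16.7 in irradiated and 0.984 to 11.2 in control libraries, which overlap. Of 9 tested genes of the roof plate and choroid progenitors none was called, with *Rspo2*, a WNT-enhancing secreted factor gene, at 35.4, 66.3 and 50.4 in irradiated and 97.6, 99.4 and 73.8 in control libraries (log2 fold change -0.85, SE 0.28, limma adjusted p = 0.858). Erythroid genes had negative log2 fold changes in 4 of 4 tested cases with none called by limma, although 3 of the 4 had an unadjusted p below 0.05, beside 4.5% of all genes, and 3 were lower without overlap, beside 4.01%. The haemoglobin gene *Hbb-bs* stood at 192 to 219 in irradiated and 284 to 446 in control libraries (log2 fold change -0.79, SE 0.20, limma adjusted p = 0.469). The part of blood cells in any difference was not tested.

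**Figure D4:**
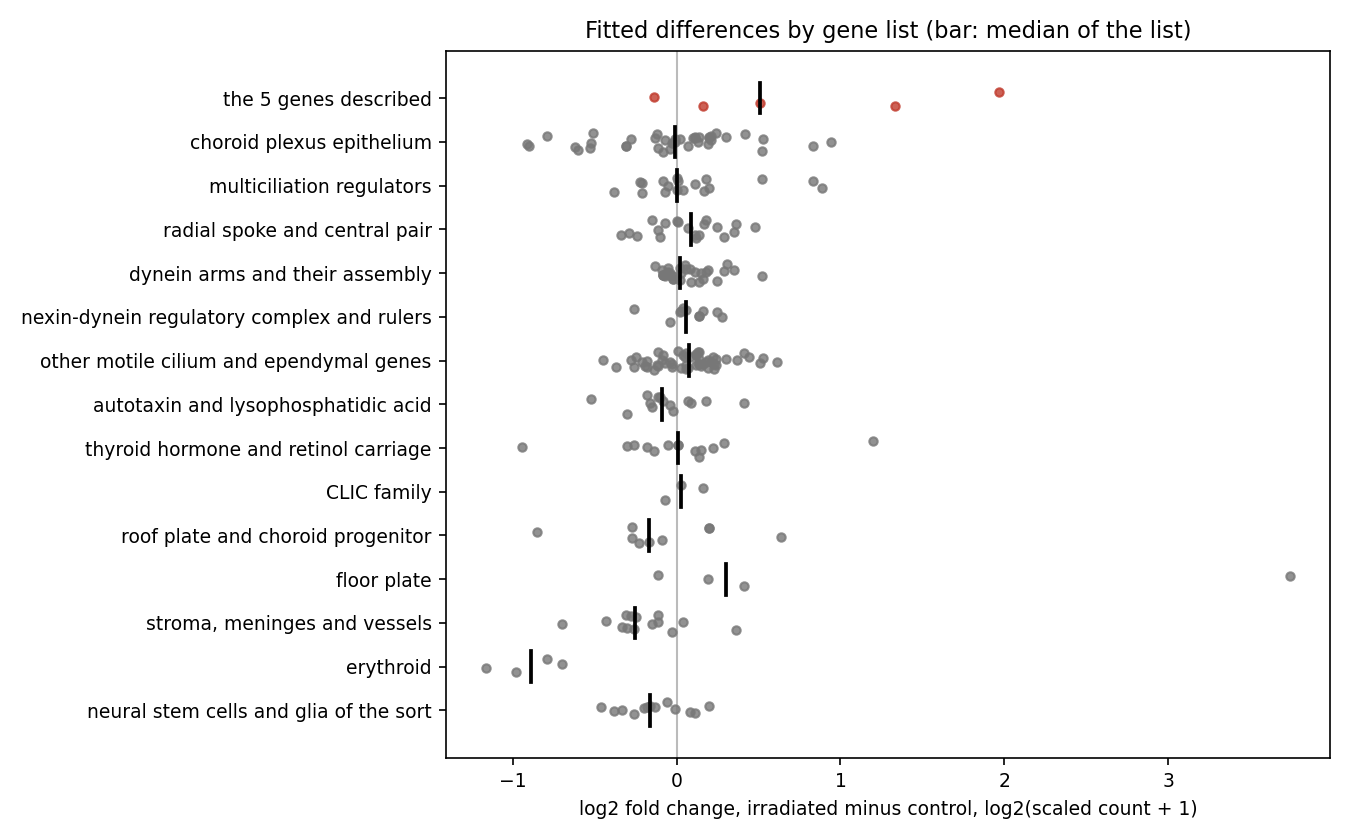
Log2 fold change, irradiated minus control, of every tested gene by list (points) with the median of each list (bar), the 5 genes described in red at the top. The choroid plexus list is centred on -0.01 and ranges from -0.91 to 0.94, and *Foxa2*, in the floor plate list, stands at 3.74.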

How the data were processed

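RNA was measured in 6 libraries, 3 irradiated and 3 control, grouped by their titles. Per the labels' protocols, cells were sorted by their Nes-CFP fluorescence and poly(A) libraries were prepared from Trizol-extracted RNA. The deposited values are a signal, a gene count divided by a DESeq size factor with 1 added by the authors. HTSeq, DESeq and the build mm10 come from the submitters' processing notes. No source used here gives the aligner.

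The added 1 was taken off. Each remaining value was a whole multiple of 1 read (100% within 0.001 reads), which gave the depth. No gene had fewer than 15 reads in all, and genes below that are not analysed here. For 25 genes whose symbol had become a date, the name was looked up by ID. GENCODE M21 held 19542 of the IDs and lacked 88.

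Differences were fitted with limma-trend on log2(scaled count + 1), the log2 of the deposited value, in the 16674 genes with a mean of at least 10. This scale understates changes of low genes. p-values are two-sided, adjusted by Benjamini-Hochberg over all genes. Version 3.58.1 of limma ran under R 4.3.3, and the script was tested on simulated data.

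The members and lists were chosen with earlier results of these data known. Genes named are the 5 members and, in each of 14 lists, those called and up to 3 with the highest mean and 3 with the largest change, with the 3 nearest in profile and the cell type markers. Neighbours, genes without overlap between groups, spoke and cilium regulator genes, *Tmem72* and *Htr2c* were added after their values were seen.

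Same-numbered libraries deviated together from their group means (correlations across genes of 0.151 to 0.451, against -0.342 to 0.0503 between different numbers). Deviations from a group mean cancel within the group, so part of this contrast is built in, and whether the numbers pair the libraries is not settled. The main fit leaves the replicate numbers out, and so do the SEs and p-values taken from it. What same-numbered libraries share is not stated by the labels, and the block is an alternative. The other alternatives were pseudocounts of 0.5 and 5, no filter, a mean of at least 50, leaving out each library, and 2 scalings added after seeing the data.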

Additional observations from a re-analysis of the deposited data

How the results depend on the processing

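Over 13 alternatives, *Clic6*, *Foxj1* and *Ttr* kept a positive and *Enpp2* a negative fitted difference, and *Rsph1* turned without control replicate 3 (-0.15). The number of genes called was 9 with pseudocounts of 0.5 or 5, no filter, and scaling by totals or by quantiles, and 6 when the mean had to reach 50. It was 25 with the replicate block and 1 to 29 with 1 library left out (29 without irradiated replicate 1, 1 without control replicate 2, 2 without control replicate 1, and 3 if irradiated replicate 2 or control replicate 3 was missing). In the choroid plexus and motile cilium lists it was 0 under each alternative run. The block changed no call of a gene named here. *Foxa2* was called without irradiated replicate 1 and missed the threshold without any other library (limma adjusted p = 0.0599 to 0.149). Count-based tests planned as alternatives were not run, and the reads recovered from the scaled values served for depth alone. With 3 libraries a group, *Ttr* cannot be read as a group difference, since 1 library decides it.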
